A study of Tachysurus vachellii and Tachysurus fulvidraco x Tachysurus vachelli and Tachysurus fulvidraco with 9 samples.

Results

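The liver small RNA table of 2 catfish species and their hybrid holds 33 distinct sequences that carry an arm name in lower case, p5 or p3, after the name of a known miRNA precursor. Such a name places a read on an arm of a precursor without giving it the name of a mature miRNA. Whether a mature miRNA of that arm is on record elsewhere was not checked. The member dre-mir-143-2-p5, for example, holds the whole of an annotated sequence. The 33 were found by name among 728 distinct sequences in the table, leaving out predicted candidates and the families of miR-7, miR-24 and miR-451. By name they fall in 23 precursor families, with 17 on the 5′ arm and 16 on the 3′ arm. The names were not checked against precursor sequences. The members oan-mir-153-1-p5_1ss5TC and oan-mir-153-1-p3_1ss4CT, named as opposite arms, share 14 bases on the same strand. The comparison set is the 496 annotated sequences of the same table.

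The samples are juvenile livers of 3 lines, with 3 libraries each. The hybrid is the yellow catfish Huangyou-1, from P. fulvidraco females crossed with P. vachelli males, and its parents are P. vachelli and P. fulvidraco. All lines were bred and reared at the same university, each in 3 aquaria, and the labels name no treatment that separates them. What a replicate stands for (single fish, pooled fish or the fish of an aquarium) is not given, so p-values measure only the spread between these samples and cannot be tied to separate animals.

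A miRNA precursor is a short hairpin that Dicer trims into a duplex of both arms. An Argonaute protein keeps mostly the strand of one arm, the guide, and the other strand is usually degraded, so the passenger arm is seen at a low level. Bases 2 to 8 of the loaded strand, the seed, find the targets. A read that carries the name of an opposite arm should therefore pair with the annotated arm of its hairpin. The sequences below, shown because the results turn on them, are given 5′ to 3′ as the deposited table has them, with T for U and the seed in capitals.
hsa-mir-7641-2-p5: aTCTCGGAagctaagcagggtc
hsa-mir-7641-2-p3: gGGCCTGGttagtacttggat
hsa-mir-7641-1-p3: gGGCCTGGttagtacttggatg
hhi-mir-7641-p5_1ss15AG: gTCCGATCtcggaagcta
mmu-mir-6240-p5_1ss18GT: cTGCCCAGtgctctgaatgtc
hsa-mir-6087-p5_1ss1GT: tGGGCTCTcgcttctggc
ccr-mir-30b-p3_1ss4GA: cTGAGAGGagggtgtttgct
mmu-mir-1187-p5_1ss12AG: cACACACAcatgtatatatat

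The next sequences are shown because a member is an exact complement of a stretch of another sequence, which capitals mark in both.
hsa-mir-3074-p5: actcCTGTTCCTGCTGAACTGA
ipu-miR-24_1ss23GT: tggcTCAGTTCAGCAGGAACAGt
ipu-mir-7565-p3: TGTAATCAGCTCAGTAGGCAcg
ipu-mir-24-3-p5: TGCCTACTGAGCTGATTACAgt
ipu-mir-199b-p3_1ss1CA: atGAACAGGTAGTCTGAACACT
dre-miR-199-5p: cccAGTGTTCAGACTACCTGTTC

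Both mir-7641 p3 names stand for nearly the same molecule: the 22-base form is the 21-base form plus 1 base, and they share a seed. The hhi name overlaps hsa-mir-7641-2-p5 over 13 bases. In human, the mir-7641 entries are known to match 5S ribosomal RNA, the small RNA of the large ribosomal subunit. Per the labels, ribosomal RNA and other common RNA families were removed from the reads before annotation. No ribosomal RNA sequence was at hand, so whether mir-7641, mir-6240, mir-6087 or other members match one in these fish was not checked.

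Levels are given as normalized read counts, the deposited signal per library, in which 1 read is worth 0.898 to 1.19. All entries of a library, repeated ones included, sum to an estimated 5738414 to 8578713 reads. Percents of the total are of distinct sequences, each counted once. The markers miR-122, miR-192 and miR-194 of hepatocytes made up 31.7% to 32.3% of the total in hybrid livers, 33.8% to 37.6% in P. vachelli livers and 33.9% to 35.0% in P. fulvidraco livers, with all 3 families above 0. Erythroid markers (miR-451 and miR-144, both families above 0) took 1.01% to 1.72% in hybrid livers, 0.529% to 0.547% in P. vachelli livers and 1.26% to 1.61% in P. fulvidraco livers. Leukocyte markers (4 of 4 families above 0) took 0.251% to 0.264% in hybrid livers, 0.174% to 0.199% in P. vachelli livers and 0.231% to 0.266% in P. fulvidraco livers. Muscle markers took 0.0142% to 0.0289% in hybrid livers, 0.00511% to 0.00639% in P. vachelli livers and 0.0158% to 0.0193% in P. fulvidraco livers, and neural markers 0.00714% to 0.00841%, 0.00467% to 0.00846% and 0.0101% to 0.0153% in the same order of lines. The endothelial miR-126 took 3.84% to 4.15% in hybrid livers, 4.39% to 5.27% in P. vachelli livers and 3.76% to 4.14% in P. fulvidraco livers, while pancreas and epithelium markers overlapped between the parents. Fewer cells of a type and less RNA per cell cannot be told apart in these bulk samples.

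All 33 members together were a trace of the libraries. They summed to 0.147%, 0.173% and 0.0572% of the total in the 3 hybrid libraries, 0.0440%, 0.0508% and 0.0550% in P. vachelli, and 0.106%, 0.122% and 0.0791% in P. fulvidraco. Hybrid library 3 sat beside the P. vachelli libraries, and the other hybrid libraries were the highest of all 9. Reads were very unequal between members: hsa-mir-7641-2-p5 and hsa-mir-7641-2-p3 alone made up 75.6% of all member reads.

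Only 8 members reached a value of 10 in at least 3 libraries and were tested, which is 24.2% of them against 50.6% of the annotated sequences. These 8 held 99.8% of the member reads. The other 25 never passed 6.45 in any library. Of those, 22 had fewer than 10 reads over all 9 libraries and 9 were seen in a single library. Across all members, 9 were above 0 in every library.

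By sequence, the members were sorted into 5 kinds, chosen after the sequences were seen and assigned in the order given here, each member to the first kind it met. The largest kind by number, 14 members, was called 2-base repeats by a rule given below and held 0.0922% of the member reads. Next came exact complements of 12 or more bases of a second sequence: 10 members met this, 5 of them repeats, and the other 5 held 0.691%. The 4 mir-7641 sequences held 81.8%. A predicted duplex of at least 16 base pairs with the annotated arm was found for 7 members, 4 of them repeats or complements, and the other 3, from mir-30, mir-143 and mir-150, held 0.297%. The remaining 7 members, among them mir-6240 and mir-6087, had none of these features and held 17.1%.

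**Figure D1:**
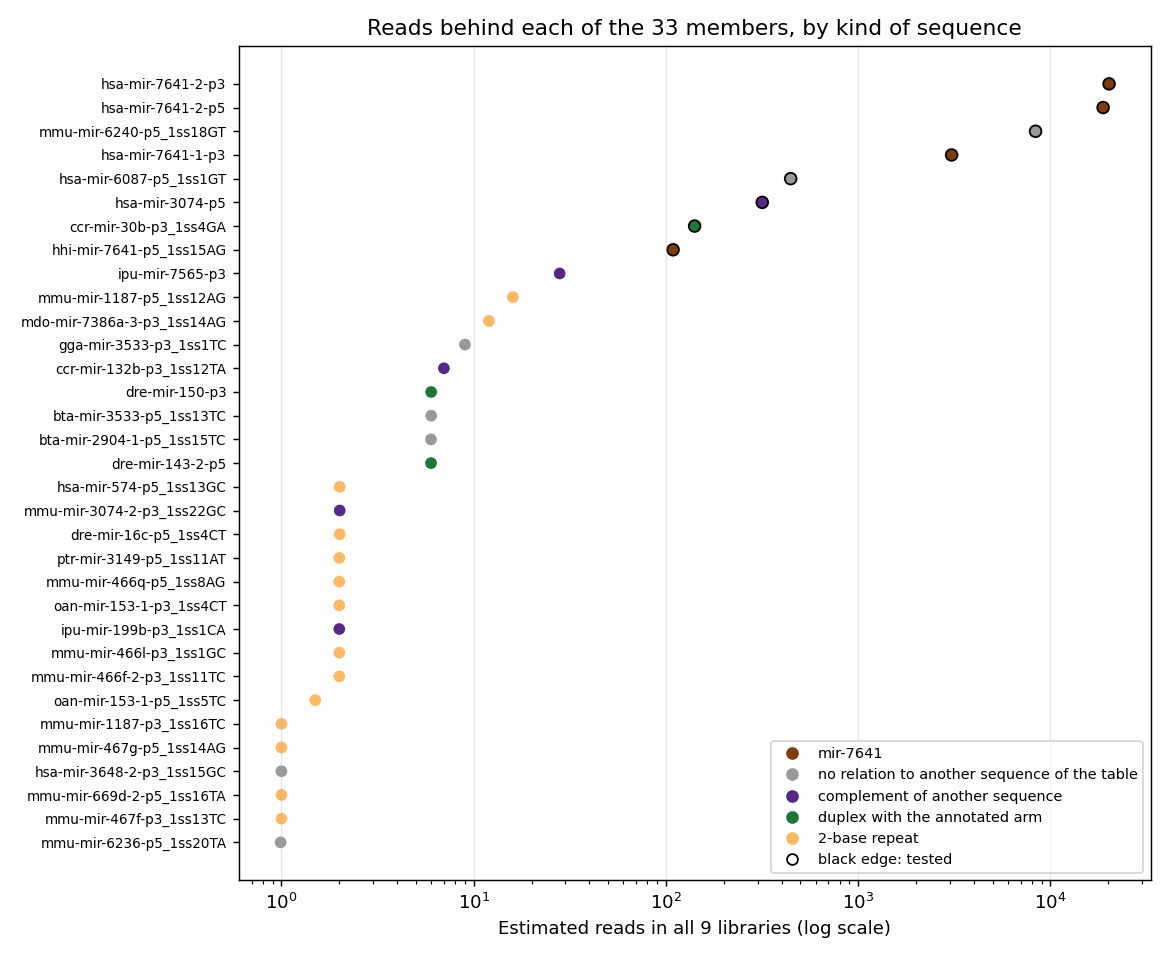
Estimated reads summed over all 9 libraries (log axis) for each of the 33 members, coloured by kind of sequence, with a black edge on the 8 tested members. The mir-7641 names and mir-6240 lead, and the 14 members with 2-base repeats lie at 1 to 16 reads.

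In the repeats, at least 50% of the bases equal the base 2 places before, as in the alternating stretches of mmu-mir-1187-p5_1ss12AG. An unbroken stretch of this kind of 10 or more bases was found in only 7 members. The rule also takes in runs of the same base. The longest such stretch in mdo-mir-7386a-3-p3_1ss14AG, which has runs of T, was 4 bases. Such a share was found in 14 of the 33 members (42.4%) and 7 of the 496 annotated sequences (1.41%). All 14 were below the filter: it was 14 of 25 members (56.0%) and 5 of 245 annotated sequences (2.04%) there, and 0 of 8 and 2 of 251 among those tested. A length of 21 to 23 bases was found for 57.6% of the members and 86.9% of the annotated sequences, and for 5 of the 8 tested members and 90.4% of the tested annotated ones. A first base of T, common among Argonaute guides, stood on 33.3% of the members and 43.5% of the annotated sequences. Below the filter it was 10 of 25 members (40%) and 36.7% of the annotated sequences, and among those tested 1 of 8 and 50.2%. By name, 78.8% of the members and 25.4% of the annotated sequences carry a substitution against the reference entry, and among those tested it was 4 of 8 and 25.5%. A fish species prefix was found on 24.2% of the members and 45.4% of the annotated sequences. Below the filter, however, it was on 6 of 25 members and 59 of 245 annotated sequences, and among those tested on 2 of 8 and 66.1%.

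Both arms of hsa-mir-7641-2 gave the highest levels of the tested members. In hybrid livers, hsa-mir-7641-2-p3 had 3229, 4239 and 1318 normalized reads, against 1162, 1337 and 1668 in P. vachelli and 2661, 2613 and 1783 in P. fulvidraco. Hybrid library 3 was below every P. fulvidraco library and inside the P. vachelli range. The P. vachelli and P. fulvidraco libraries did not overlap. By mean over all 9 libraries this sequence ranked 84 among the 278 tested.

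In hybrid livers, hsa-mir-7641-2-p5 had 3025, 3628 and 1264 normalized reads, against 1208, 1281 and 1465 in P. vachelli and 2366, 2569 and 1815 in P. fulvidraco. The longer form of the p3, hsa-mir-7641-1-p3, had 462, 671 and 209 in hybrid livers, 230, 186 and 200 in P. vachelli livers and 353, 410 and 314 in P. fulvidraco livers. Both repeated the order of line means of the first sequence, with hybrid library 3 at the P. vachelli level and no overlap between the parents. The 18-base hhi-mir-7641-p5_1ss15AG was far lower, at 20.3, 22.2 and 9.83 in hybrid livers, 4.30, 6.74 and 11.9 in P. vachelli livers and 17.2, 8.89 and 7.39 in P. fulvidraco livers. Its parents overlapped, and it rested on 4.0 to 22.5 estimated reads in a library.

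The members mir-6240-p5 and mir-6087-p5, named after mouse and human precursors, were high and low in much the same libraries. In hybrid livers, mmu-mir-6240-p5_1ss18GT had 1410, 1318 and 537 normalized reads, against 604, 650 and 743 in P. vachelli and 894, 1195 and 949 in P. fulvidraco. The parents did not overlap, and hybrid library 3 was the lowest of all 9. The level of hsa-mir-6087-p5_1ss1GT was 80.8, 82.3 and 24.3 in hybrid livers, 18.3, 23.4 and 49.8 in P. vachelli livers and 62.3, 68.2 and 33.7 in P. fulvidraco livers. All 3 lines overlapped for mir-6087.

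**Figure D2:**
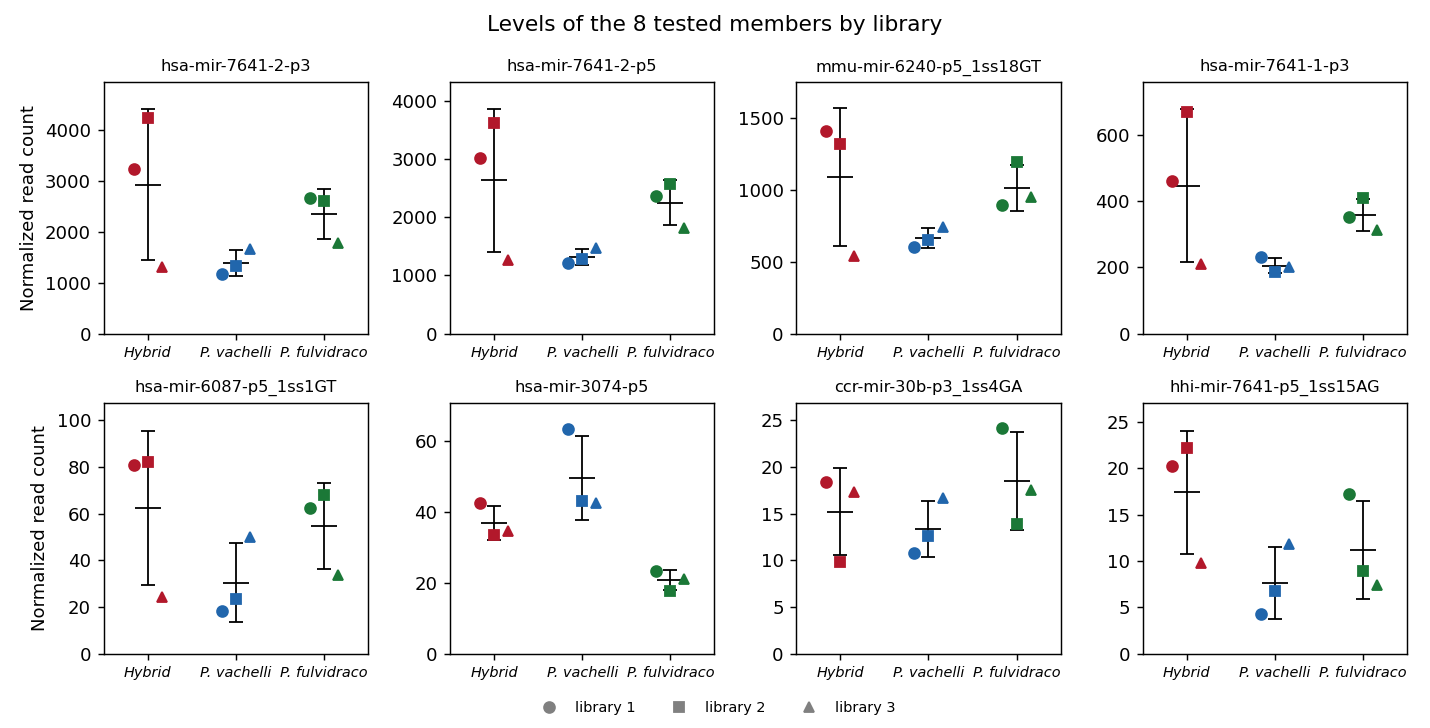
Normalized read count (linear axes from 0) of the 8 tested members, with 1 point per library and the mean ± SD of each line (n = 3). In 6 of the 8 panels hybrid library 3, a triangle, lies far below the other hybrid libraries, while mir-3074-p5 and mir-30b-p3 lack that gap.

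The gap in hybrid library 3 was shared by few other sequences. Its value was under 0.5 times that of both other hybrid libraries for 18 of the 278 tested sequences (6.47%), and 6 of these were members. Another 11 were annotated sequences, of which 2 carried a fish prefix and 9 that of another animal. Of all 251 tested annotated sequences, 166 carried a fish prefix. The prefix is that of the reference entry and does not give the source of a read. The SD of the log2 level among hybrid libraries was 0.60 to 0.99 for the 6 members, against a median of 0.21 over all tested sequences. The 6 were picked by this gap, which fixes a high SD in advance, so the SD adds nothing to it. What sets hybrid library 3 apart was not tested.

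The ratio between the abundant mir-7641 sequences varied less over the libraries than their sum. The sum of the 4 sequences was 6736, 8560 and 2801 in hybrid livers, 2604, 2811 and 3345 in P. vachelli livers and 5398, 5600 and 3919 in P. fulvidraco livers, a 3.29-fold span. Within a library, the p5 divided by both p3 forms stayed between 0.739 and 0.868, a 1.18-fold span. The 22-base form took 12.5% to 13.7% of the p3 reads in hybrid livers, 10.7% to 16.5% in P. vachelli livers and 11.7% to 14.9% in P. fulvidraco livers. The scarce hhi-mir-7641-p5_1ss15AG was less steady against hsa-mir-7641-2-p5, at 0.611% to 0.778% in hybrid livers, 0.356% to 0.809% in P. vachelli livers and 0.346% to 0.727% in P. fulvidraco livers, a 2.34-fold span on few reads. These are ratios, which the scaling of a library does not touch, and in all 3 each line's range overlapped those of the other lines.

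Against the mir-7641 sum, mir-6240-p5 stood at 20.9%, 15.4% and 19.2% in hybrid livers, 23.2%, 23.1% and 22.2% in P. vachelli livers and 16.6%, 21.3% and 24.2% in P. fulvidraco livers. The hybrid and P. vachelli libraries did not overlap in this ratio, at 18.5% ± 2.83 and 22.8% ± 0.545 (SD, n = 3 each). The exact two-sided permutation test gave p = 0.1, the smallest that 3 against 3 libraries allow, and 0.525 after Benjamini-Hochberg adjustment over 21 tests of 7 ratios. For mir-6087-p5 the ratio to the sum was 0.867% to 1.20% in hybrid livers, 0.702% to 1.49% in P. vachelli livers and 0.860% to 1.22% in P. fulvidraco livers, with all lines overlapping.

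**Figure D3:**
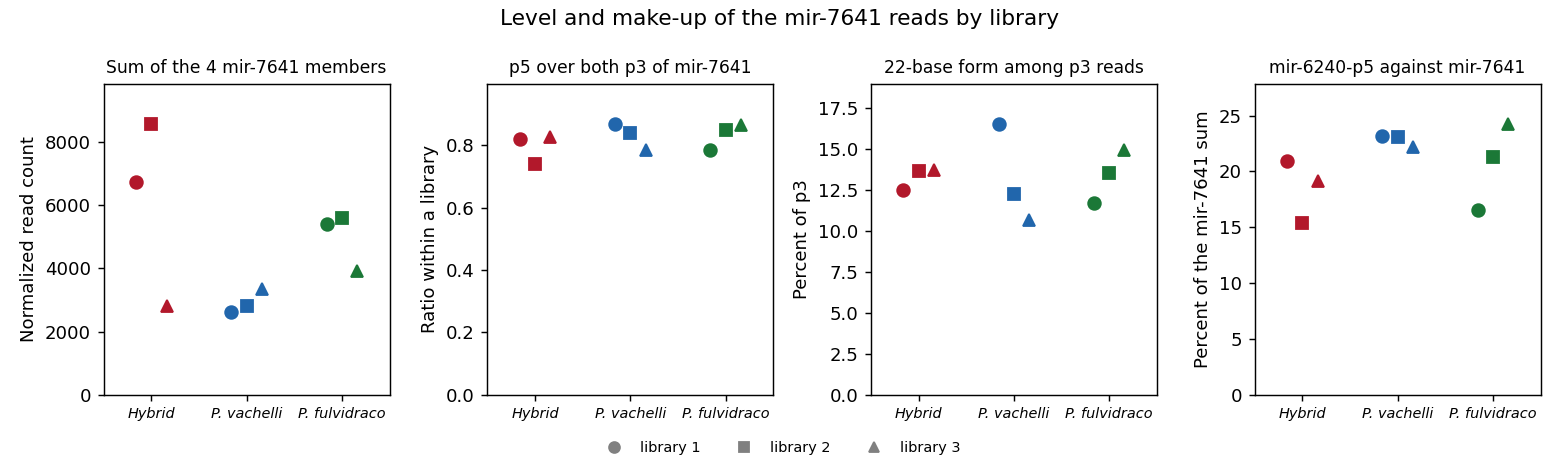
Sum of the 4 mir-7641 sequences in normalized reads, the ratio of p5 to both p3 forms, the percent of the 22-base form among p3 reads, and mir-6240-p5 in percent of the sum, with 1 point per library and axes from 0. The sum spans 3.29-fold over the 9 libraries and the p5 to p3 ratio 1.18-fold.

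As duplexes, the mir-7641 arms were weak. The p5 and p3 of hsa-mir-7641-2 gave a predicted duplex energy of -16.8 kcal/mol over 17 base pairs. The 42 pairs of annotated arms in the table had a median of -23.1 kcal/mol, with a range from -28.1 to -15.0, and 1 of them was weaker than the mir-7641 pair. No annotated arm of mir-7641 is among the names, so no ratio to one can be given.

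In the hybrid against P. vachelli comparison, limma-trend called 0 of the 8 tested members at an adjusted p of 0.05, while it called 34.9% of the 278 sequences tested. At an unadjusted p under 0.05 there were 4 of the 8 members and 132 of the 278 tested sequences. Only mir-3074-p5, described below, had hybrid and P. vachelli libraries that did not overlap, against 46.8% of all tested. The median log2 fold change of the 8 was 0.90, and that of all tested sequences was -0.01. The 8 are not independent: 4 are mir-7641 sequences, and mir-6240-p5 and mir-6087-p5 were high and low in much the same libraries. Counts and medians of the 8 carry this limit in every comparison. The 4 mir-7641 members had log2 fold changes of 0.87 to 1.11, with adjusted p between 0.0576 and 0.0845. For mir-6240-p5 the log2 fold change was 0.59 ± 0.32 (SE, adjusted p = 0.183), and for mir-6087-p5 it was 0.95 ± 0.53 (SE, adjusted p = 0.188).

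That result turned on hybrid library 3 and on the scaling. Without hybrid library 3, 6 members were called higher in the hybrid than in P. vachelli: the 4 mir-7641 sequences, mir-6240-p5 and mir-6087-p5. In that fit 101 of all 278 tested sequences were called in either direction. Without P. vachelli library 3, hhi-mir-7641-p5_1ss15AG alone was called. With all libraries scaled to equal totals, the 4 mir-7641 members were called higher in the hybrid, beside 114 of all 279 tested sequences called in either direction. However, that scaling also moved the median of all tested sequences to 0.34. The mir-7641 fold changes then stood at 1.22 to 1.42. In hybrid livers the erythroid, leukocyte, muscle and pancreas shares were above those of P. vachelli livers, and the hepatocyte and endothelial shares were below. Neural and epithelium shares overlapped. Such shares are percents of a library total, a different scale from the deposited one used for the members. The part of those cells in the hybrid against P. vachelli result was not tested.

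In the P. vachelli against P. fulvidraco comparison, 1 of the 8 members was called, against 51.4% of all tested. An unadjusted p under 0.05 was found for 3 members and for 159 of the 278 tested sequences. The libraries of the parents did not overlap for 5 members, against 59.4% of all tested. The median log2 fold change of the members was -0.68, beside -0.05 over all tested sequences. Both hsa-mir-7641-2 arms had log2 fold changes near that median, at -0.76 ± 0.34 for the p5 (SE, adjusted p = 0.0859) and -0.75 ± 0.38 for the p3 (SE, adjusted p = 0.122). For hsa-mir-7641-1-p3 it was -0.80 ± 0.35 (SE, adjusted p = 0.0840), and for mir-6240-p5 it was -0.60 ± 0.32 (SE, adjusted p = 0.147). The shared estimate of spread includes the hybrid libraries, and without hybrid library 3 there were 5 called members, 4 of them lower in P. vachelli. In that fit 143 of all 278 tested sequences were called. Fitted on the parents alone the count of members was also 5, beside 139 of all 278 tested. It was 2 without hybrid library 2, where hsa-mir-7641-1-p3 joined mir-3074-p5, beside 130 of all 275 tested. With no filter on low values it was 2, beside 168 of all 728. With equal totals it was 4, beside 139 of all 279, and that scaling moved the median of all tested sequences to -0.35. The 4 members called lower without hybrid library 3 were the 3 hsa-mir-7641 sequences and mir-6240-p5. In P. vachelli livers the erythroid, leukocyte, muscle and neural shares were also below those of P. fulvidraco livers, and the endothelial share was above. Those shares are percents of a library total, as under equal totals, a scale that lowers P. vachelli values against the deposited one used for the members. The shares and the member levels are therefore not on the same scale. The part of those cells in the result was not tested.

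In the hybrid against P. fulvidraco comparison, 1 of 8 members was called, against 19.4% of all tested, and the same member was the only one whose libraries did not overlap, against 36.3% of all tested. The median log2 fold change of the members was 0.14, beside 0.06 over all tested. The mir-7641 and mir-6240 members had log2 fold changes of -0.01 to 0.61 here, with SE of 0.32 to 0.46.

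**Figure D4:**
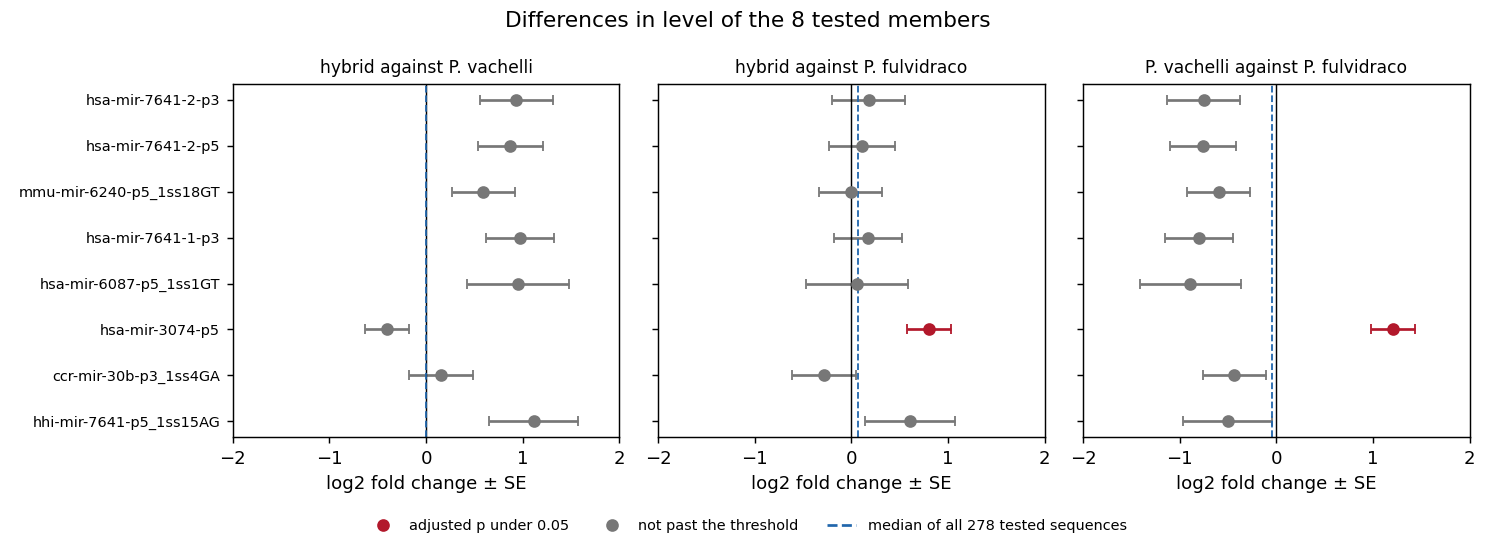
Log2 fold change ± SE of the 8 tested members in the 3 comparisons, with called members in red and the median of all 278 tested sequences as a dashed line. Only mir-3074-p5 is called, higher in the hybrid and in P. vachelli than in P. fulvidraco, while the mir-7641 and mir-6240 points lie right of 0 for the hybrid against P. vachelli and left of 0 for P. vachelli against P. fulvidraco.

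The only member called was hsa-mir-3074-p5. In human, the mir-3074 hairpin lies on the strand opposite a mir-24 gene, and here 18 of the 22 bases are the exact complement of ipu-miR-24_1ss23GT. It had 42.6, 33.5 and 34.7 normalized reads in hybrid livers, 63.4, 43.1 and 42.7 in P. vachelli livers and 23.2, 17.8 and 21.2 in P. fulvidraco livers. These are 108.0 estimated reads in hybrid libraries, 143.0 in P. vachelli and 66.0 in P. fulvidraco. No library of any line lay in another line's range, though the highest hybrid and lowest P. vachelli libraries nearly met.

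The means of mir-3074-p5 were 36.9 ± 4.92 in hybrid livers, 49.7 ± 11.8 in P. vachelli livers and 20.8 ± 2.76 in P. fulvidraco livers (SD, n = 3 each). It was higher in P. vachelli than in P. fulvidraco, with a log2 fold change of 1.21 ± 0.23 (SE, limma adjusted p = 0.00188). It was also higher in the hybrid than in P. fulvidraco, at 0.80 ± 0.23 (SE, adjusted p = 0.0359). Against P. vachelli the hybrid's log2 fold change was -0.40 ± 0.23 (SE, adjusted p = 0.200). The call between the hybrid and P. fulvidraco rested on single libraries: leaving out any of the hybrid libraries, P. vachelli library 2, or P. fulvidraco library 2 or 3 ended it, with adjusted p of 0.0585 to 0.117. The adjusted p was 0.114 with no filter on low values and 0.0511 when those groups were fitted alone.

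The miR-24 sequence it complements, a broadly expressed miRNA, was far more abundant, and its hybrid mean was the lowest of the 3 lines. It had 5465, 4841 and 6666 normalized reads in hybrid livers, 7833, 8850 and 6768 in P. vachelli livers and 5795, 6376 and 6248 in P. fulvidraco livers. The hybrid was lower than P. vachelli by limma (log2 fold change -0.47 ± 0.14 SE, adjusted p = 0.0294). Between the hybrid and P. fulvidraco the log2 fold change was -0.13 ± 0.14 (SE, adjusted p = 0.592), and between P. vachelli and P. fulvidraco it was 0.34 ± 0.14 (SE, adjusted p = 0.0732).

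In percent of ipu-miR-24_1ss23GT, mir-3074-p5 stood at 0.779%, 0.692% and 0.520% in hybrid livers, 0.809%, 0.487% and 0.631% in P. vachelli livers and 0.401%, 0.279% and 0.340% in P. fulvidraco livers. Every hybrid and P. vachelli library was above every P. fulvidraco library, and the hybrid and P. vachelli ranges overlapped. The means were 0.664% ± 0.132, 0.643% ± 0.162 and 0.340% ± 0.0610 in that order of lines (SD, n = 3 each). The exact two-sided permutation p was 0.1 for the hybrid against P. fulvidraco and for P. vachelli against P. fulvidraco, the smallest possible, and 0.525 for each after adjustment over the 21 ratio tests. No annotated arm of mir-3074 is among the names.

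The opposite arm of mir-24, ipu-mir-24-3-p5, had the same order of line means as mir-3074-p5. It had 97.7, 74.9 and 96.0 normalized reads in hybrid livers, 91.4, 123.0 and 94.9 in P. vachelli livers and 74.4, 51.4 and 59.1 in P. fulvidraco livers. It was higher in P. vachelli than in P. fulvidraco (log2 fold change 0.74 ± 0.21 SE, limma adjusted p = 0.0142), and for the hybrid against P. fulvidraco the log2 fold change was 0.54 ± 0.21 (SE, adjusted p = 0.0967). In percent of this arm, mir-3074-p5 stood at 43.6%, 44.7% and 36.1% in hybrid livers, 69.4%, 35.0% and 45.0% in P. vachelli livers and 31.2%, 34.6% and 35.9% in P. fulvidraco livers. The P. vachelli and P. fulvidraco ranges overlapped here, with a log2 difference of 0.50 (exact permutation p = 0.2). The hybrid and P. fulvidraco libraries did not overlap, with a log2 difference of 0.29 (exact permutation p = 0.1, adjusted 0.525). Against ipu-miR-24_1ss23GT the same log2 differences were 0.90 and 0.96.

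**Figure D5:**
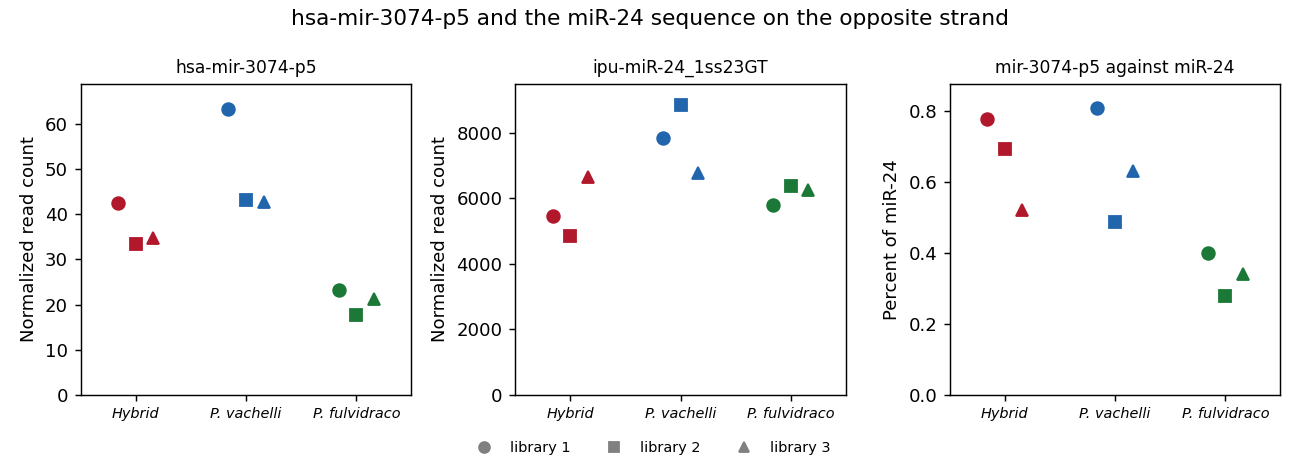
Normalized read count of mir-3074-p5, normalized read count of the miR-24 sequence it complements, and mir-3074-p5 in percent of that sequence, with 1 point per library and axes from 0. The percent is 0.520 to 0.779 in hybrid livers, 0.487 to 0.809 in P. vachelli livers and 0.279 to 0.401 in P. fulvidraco livers.

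Other members were complements of the same kind. The 5′ arm of mir-24, present as ipu-mir-24-3-p5 and outside the member rule, is the exact complement of ipu-mir-7565-p3 over 20 bases. With 28.0 estimated reads in all, ipu-mir-7565-p3 had 1.93, 2.96 and 1.16 normalized reads in hybrid livers, 6.45, 2.69 and 3.56 in P. vachelli livers and 3.72, 1.98 and 3.69 in P. fulvidraco livers. The lines overlapped at 1 to 6 reads per library, and the member was not tested. Its own annotated partner, ipu-miR-7565, had 10 reads in all and shares 15 bases with mir-3074-p5 on the same strand. Both members named next for their complements after the values were seen had fewer reads: ccr-mir-132b-p3_1ss12TA with 7.0 was complementary to ssa-miR-132-5p over 20 bases, and ipu-mir-199b-p3_1ss1CA with 2.0 to dre-miR-199-5p over 20 bases.

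Runs of this length were not seen between the annotated arms. In the 42 annotated pairs the longest run of perfect complement had a median of 7 bases and did not exceed 15. A run of 12 or more bases, the limit used for the members, was found in 5 of these pairs. Members were compared with every sequence of the table and annotated arms only with their own partner, so these shares cannot be set side by side. The predicted duplexes of 132b-p3 and 199b-p3 with the annotated 5′ arm, at -32.6 and -35.0 kcal/mol, were stronger than any annotated pair. Both were named for an exact complement of 20 bases, which fixes a strong duplex in advance, and they rest on 7 and 2 reads. The repeats mmu-mir-466f-2-p3_1ss11TC and mmu-mir-466q-p5_1ss8AG, at -29.9 and -29.5 kcal/mol, also passed the strongest annotated pair at -28.1 kcal/mol. They are exact complements of their partners over 16 and 14 bases, which by itself makes for a strong duplex. Each rests on 2 reads, and the partner of mmu-mir-466q-p5_1ss8AG on 1.

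Of the 33 members, 13 have an annotated arm of the same family number in the table, opposite in arm name or with no arm given, and 2 of these were tested. Set against that arm, 10 of the 13 lay below 2.46%, the median level of the minor arm in the 42 annotated pairs. Both arms of every such pair had passed the filter, and most of these members had not, so a low percent was built in. The pairs also set a single sequence against a single one of the same letter, while members were divided by all their partners summed. The comparison therefore cannot show that members are lower than other minor arms. The annotated pairs ranged from 0.00449% to 95.5%, and 3 members lay below that range. In 3 cases the member exceeded its partner: ipu-mir-7565-p3, mmu-mir-466q-p5_1ss8AG and mir-6240-p5, whose partners had 10, 1 and 15 reads in all.

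The tested member with a stable duplex with an annotated arm of its family number was ccr-mir-30b-p3_1ss4GA. The miR-30 family is broadly expressed in vertebrate liver. This member formed a predicted duplex of -26.7 kcal/mol with 19 base pairs with ssa-miR-30a-5p_R+1, its most abundant partner. It had 18.4, 9.86 and 17.4 normalized reads in hybrid livers, 10.8, 12.6 and 16.6 in P. vachelli livers and 24.2, 13.8 and 17.6 in P. fulvidraco livers. All lines overlapped, on 10 to 26 estimated reads per library.

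Its partners, 3 annotated miR-30 5p sequences, summed to 153600, 135600 and 133400 in hybrid livers, 147500, 142000 and 122100 in P. vachelli livers and 153000, 174200 and 188600 in P. fulvidraco livers. The p3 was 0.00727% to 0.0130% of them in hybrid livers, 0.00729% to 0.0136% in P. vachelli livers and 0.00794% to 0.0158% in P. fulvidraco livers. The lines overlapped throughout. Only 2 of the 42 annotated pairs had a minor arm at a lower percent than the 0.0104% of this member over all libraries. The pairs set single sequences against each other, while this percent is of 3 sequences summed. The annotated 3p arms of the family, ssa-miR-30a-4-3p_1ss12GA and dre-miR-30e-3p, averaged 323 and 7958 normalized reads against 15.7 for the member. The partners are named miR-30a and miR-30e, none carries the letter b, and with partners of the same letter only, the member has no ratio. Letters are those of the names, and whether a partner sequence is the 5p arm of miR-30b was not checked. The percent against the true arm of its hairpin may therefore differ. The log2 difference in the ratio was 0.11 ± 0.34 for the hybrid against P. vachelli (SE, limma adjusted p = 0.861) and -0.11 ± 0.34 for P. vachelli against P. fulvidraco (SE, adjusted p = 0.855). For the hybrid against P. fulvidraco it was 0.00 ± 0.34 (SE, adjusted p = 0.993). A change has to be well above the SE to be called, so smaller changes in this ratio could have been missed.

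Arm ratios could be tested for 229 sequences in all. Of the 2 members among them, 0 were called in the hybrid against P. vachelli, where 15.7% of all ratios were called. Likewise 0 were called in the hybrid against P. fulvidraco, with 3.49% of all ratios called, and 0 in P. vachelli against P. fulvidraco, with 23.1%. At an unadjusted p under 0.05 limma also gave 0 in each comparison. The ratio of mir-6240-p5 rests on a partner at 0 in 4 of the 9 libraries and gave a log2 difference of -1.98 ± 0.96 for P. vachelli against P. fulvidraco (SE, adjusted p = 0.165). Its predicted duplex with that partner was -8.80 kcal/mol over 11 base pairs.

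The remaining members with an annotated arm were at the edge of detection and were named after their values were seen. The sequence dre-mir-150-p3 had 6.0 reads in all, 0.00880% of miR-150-5p, a leukocyte miRNA, and a predicted duplex of -26.7 kcal/mol. With 6.0 reads, dre-mir-143-2-p5 was 0.00126% of miR-143-3p, a smooth muscle miRNA, and its last 22 bases are identical to ssa-miR-143-5p, an annotated sequence with a mean of 1314 normalized reads. The member is that annotated arm with 1 base more at its start.

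A single member was above 0 in every library of 1 parent and at 0 in every library of the other. The repeat mmu-mir-1187-p5_1ss12AG had 1.93, 3.94 and 0 normalized reads in hybrid livers, 1.07, 5.39 and 3.56 in P. vachelli livers and 0 in each P. fulvidraco library. These were 6 estimated reads in hybrid livers and 10 in P. vachelli livers, and a count of 0 in P. fulvidraco allows up to 3 reads. It was below the filter and so not tested. With no filter on low values limma called it higher in P. vachelli than in P. fulvidraco (adjusted p = 0.0428). That call rests on these few reads, and its fold change depends on the pseudocount. The member is singled out here by its values in those same libraries, so the direction was fixed by the choice and the call lends no support.

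The annotated arms of the same families served as a list beside the members. There are 32 in 10 families, of which 23 were tested. In the hybrid against P. vachelli 1 was called higher and 3 lower, with a median log2 fold change of -0.09. In the hybrid against P. fulvidraco 3 were higher and 2 lower, with a median of -0.08. In P. vachelli against P. fulvidraco 7 were higher and 3 lower, with a median of 0.20. Among all 278 tested sequences, 43 were higher and 54 lower, 36 higher and 18 lower, and 86 higher and 57 lower, in that order. The 8 members had medians of 0.90, 0.14 and -0.68 in the same order of comparisons.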

How the data were processed

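Per the labels, small RNA libraries were made from liver total RNA with the TruSeq kit and sequenced on an Illumina HiSeq instrument. The submitters' program ACGT101-miR removed adapter dimers, low-complexity reads and common RNA families. The authors deposited a normalized signal per library and mature sequence. The formula is not given in the sources used here, nor is a build of the genome. Repeated entries were reduced to 1 per distinct sequence (888 entries, 728 sequences). The value of 1 read was taken from the spacing of low values, of which 85.6% to 93.9% were whole within 0.1 read. Read numbers are therefore estimates, and floors and limits cover counting error only.

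Sequences at 10 or more in at least 3 of 9 libraries (278) were fitted with limma 3.58.1 (limma-trend, R 4.3.3) on log2(value + 1), all 3 lines together, two-sided, with Benjamini-Hochberg adjustment and a threshold of 0.05. Fold changes of low sequences are understated on this scale. Arm ratios were log2((value + 1)/(partner + 1)). Duplexes were predicted with ViennaRNA 2.7.2. Other tools were Python 3.11.15, numpy 2.4.6, pandas 2.3.3, scipy 1.17.1 and matplotlib 3.10.9. The fit was also run on simulated data, with independent normal values around the mean of each sequence. These hold no library set apart like hybrid library 3, so that run cannot speak for results that turn on it.

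Named are the 10 most abundant members, every member called and every member above 0 in all 3 libraries of a parent and at 0 in all 3 of the other, with their annotated partners. Others were named after their values were seen. Members, lists and sequence kinds were chosen with earlier results of these data known. Alternatives covered scaling, pseudocount, filter, trend, partner, groups fitted, table entries, a replicate block and each library left out.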

Additional observations from a re-analysis of the deposited data

How the results depend on the processing

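The counts of called members depended on scaling, filter and single libraries. The hybrid against P. vachelli count of 0 was 4 with equal totals and 4 with equal totals without the most abundant sequence, and it ran from 0 to 6 with each library left out. Over all tested sequences those scalings called 114 of 279 and 109 of 280. The hybrid against P. fulvidraco count of 1 was 0 with no filter, 0 with a minimum of 50 and 0 with only those groups fitted, and 0 to 1 with each library left out. The P. vachelli against P. fulvidraco count of 1 was 4 under both equal-total scalings, 2 with no filter, 5 with only those groups fitted, 1 to 5 with each library left out, and 0 with a minimum of 50, which leaves mir-3074-p5 untested. The replicate block left the counts at 0, 1 and 1, beside 82, 42 and 118 of all 278 tested sequences. Replicate numbers did not pair the libraries, since 1 of 9 correlated best with its own number. The cause of these shifts was not tested.

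Directions that turned belonged to uncalled values near 0. In the hybrid against P. fulvidraco, mir-6240-p5 stood at 0.0361 with equal totals. With each library left out, the log2 fold change there ran from -0.187 to 0.573 for hsa-mir-7641-2-p5, -0.166 to 0.676 for hsa-mir-7641-2-p3, -0.196 to 0.641 for hsa-mir-7641-1-p3, -0.25 to 0.629 for mir-6087-p5 and -0.255 to 0.44 for mir-6240-p5. The log2 ratio difference of mir-30b-p3 was -0.00448 there with a pseudocount of 0.5 and ran from -0.188 to 0.287. It ran from -0.0732 to 0.355 for the hybrid against P. vachelli and from -0.351 to 0.173 for P. vachelli against P. fulvidraco. No arm ratio of a member was called under any alternative run. Depth limits the 25 members below the filter, with at most 28 reads each in all 9 libraries.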
